A study of Mus musculus and Ictidomys tridecemlineatus with 36 samples.

Results

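The *Onecut* genes are a family of 3 members in mouse, *Onecut1*, *Onecut2* and *Onecut3*, and the CUT&RUN peaks described here are those that overlapped one of these genes or the 50 kb on either side of it in P2 mouse retina. There were 73 such peaks among 246656 in the 5 mouse lists, and the 3 genes were set beside all 21938 protein-coding genes of GENCODE release M21. Of the 73 peaks, 29 lay around *Onecut1*, 28 around *Onecut2* and 16 around *Onecut3*. By list, 5 of 14069 H3K4me3 peaks, 3 of 62930 H3K27ac peaks, 47 of 135798 H3K4me1 peaks, 15 of 29115 Otx2 peaks and 3 of 4744 Neurod1 peaks were members.

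Onecut proteins are transcription factors that bind DNA through a cut domain and a homeodomain. In the developing retina they are known from early progenitors, in which Onecut1 acts in the choice between cone and rod fates, and from horizontal cells and retinal ganglion cells, where Onecut1 and Onecut2 act together. Retina at P2 is past the early phase of neurogenesis in mouse and makes mainly rods and other late-born cells, so these genes were examined outside the period in which they are best known. H3K4me3 marks promoters, H3K27ac marks active promoters and enhancers, and H3K4me1 marks enhancers whether or not they are acetylated. Otx2 is a homeodomain factor and Neurod1 a basic helix-loop-helix (bHLH) factor, and both act in photoreceptor precursors.

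CUT&RUN uses an antibody to direct a nuclease to a mark or protein, and the fragments it releases are sequenced. The mouse samples were nuclei of snap-frozen retina at postnatal day 2, with 2 biological replicates that each pooled the retinas of 3 animals, and their strain and sex are not given in the sources used here. No treatment or genetic change is named in the labels. There were 2 libraries each for H3K4me3, H3K27ac, H3K4me1 and the IgG control, 4 for Neurod1 and 8 for Otx2, of which 4 used an R&D Systems and 4 an Atlas Antibodies antibody. The authors called peaks jointly over all libraries of a target against IgG, so each peak has 1 fold enrichment over IgG and 1 q-value for all of them. No value per library, spread between replicates or read depth could be given, and every comparison is a description without a test. A missing peak means that none passed the authors' q-value of 0.05. The tissue is a mixture of cell types, so fewer cells carrying a mark and less of the mark in each cell cannot be told apart.

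*Onecut1* (ENSMUSG00000043013.10) lies on the plus strand at chr9:74861921-74891781 in GRCm38 and is 29.9 kb long. *Onecut2* (ENSMUSG00000045991.19) lies on the plus strand at chr18:64340020-64400987 and is 61.0 kb long. *Onecut3* (ENSMUSG00000045518.8) lies on the plus strand at chr10:80494835-80517276 and is 22.4 kb long. Positions are given in kb from the gene start, with negative values upstream.

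As a check of the tissue, the 9 retinal marker genes reported here, among them *Pax6*, *Rax* and *Crx*, each had an H3K4me3 peak within 1 kb of the gene start, and none of the 10 markers of other tissues had one. Among 8 genes chosen as horizontal cell markers, which include *Onecut1* and *Onecut2*, 6 had an H3K4me3 peak at the promoter and 0 had an H3K27ac peak there. All 8 had an H3K4me1 peak there. Over all protein-coding genes, the shares were 52.7% for H3K4me3, 15.8% for H3K27ac and 57.6% for H3K4me1.

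The letters under 3 regions of *Onecut1* are shown because they hold the Otx2 peak with the highest fold enrichment around the gene, its only Neurod1 peak, and the promoter. In the first 2 the capitals mark every match, on either strand, to one of 5 short strings. The first is TAATCC, called the Otx2 core. The second, CAGATG, is the form of the E-box (the site of bHLH factors) that Neurod1 is known for and is called the Neurod1-type E-box. The third, CAGCTG, reads the same on both strands and is called the palindromic E-box. The fourth, ATTGAT, is called the Onecut core. The fifth, ATCGAT, is the form of that core that reads the same on both strands and is called the palindromic Onecut core. The sequences are read 5′ to 3′ on the plus strand. The promoter stretch is the 250 bases before the gene start from RefSeq on GRCm38.p6, with CpG dinucleotides in capitals.
Otx2 summit in the upstream acetylated region, chr9:74811369-74811668: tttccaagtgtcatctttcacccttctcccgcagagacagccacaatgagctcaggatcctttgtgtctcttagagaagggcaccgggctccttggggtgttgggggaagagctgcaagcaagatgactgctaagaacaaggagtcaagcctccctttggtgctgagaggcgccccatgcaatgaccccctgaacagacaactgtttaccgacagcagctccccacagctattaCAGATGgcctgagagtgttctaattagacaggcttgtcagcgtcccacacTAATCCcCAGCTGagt
Neurod1 summit upstream of the gene, chr9:74846780-74847079: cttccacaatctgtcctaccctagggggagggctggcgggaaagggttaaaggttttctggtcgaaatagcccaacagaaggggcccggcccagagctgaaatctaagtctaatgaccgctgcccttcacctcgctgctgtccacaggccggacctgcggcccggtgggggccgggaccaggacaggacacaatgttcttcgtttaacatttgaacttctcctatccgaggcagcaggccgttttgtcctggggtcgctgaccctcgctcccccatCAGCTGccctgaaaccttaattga
Bases before the start of Onecut1, chr9:74861671-74861920: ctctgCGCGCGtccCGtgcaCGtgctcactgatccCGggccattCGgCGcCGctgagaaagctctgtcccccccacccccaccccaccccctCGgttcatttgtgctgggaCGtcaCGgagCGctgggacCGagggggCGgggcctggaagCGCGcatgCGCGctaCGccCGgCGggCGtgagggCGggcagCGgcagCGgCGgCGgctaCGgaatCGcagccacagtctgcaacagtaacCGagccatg

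The first stretch held 1 Otx2 core, 1 Neurod1-type E-box and 1 palindromic E-box, all on the same side of the summit, with their centres at 137, 87 and 144 bp from it. The Otx2 core and the palindromic E-box were next to each other with a single base between them. The second stretch held 1 palindromic E-box, 129 bp from the Neurod1 summit, and none of the other strings. The promoter stretch held none of the 5 strings. It was rich in CpG, with 31 in 250 bases against a median of 6 over the 32851 promoters of the RefSeq table, of which 5.19% held at least as many. Its GC content was 71.6%, against a median of 52.4%. For comparison, the Otx2 core was present in 6.25% of these 250-base stretches, the Neurod1-type E-box in 14.4%, the palindromic E-box in 13.0%, the Onecut core in 6.72% and its palindromic form in 0.728%.

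The promoters of *Onecut1* and *Onecut2* carried H3K4me3, H3K4me1 and Otx2 peaks without H3K27ac, whereas the promoter of *Onecut3* carried a weak H3K4me1 peak alone. Within 1 kb of the gene start, 2 of the 3 genes had an H3K4me3 peak, beside 52.7% of all protein-coding genes, and 0 of 3 had an H3K27ac peak, beside 15.8%. All 3 had H3K4me1 there, beside 57.6%, 2 had Otx2, beside 47.0%, and 0 had Neurod1, beside 4.23%. The combination of H3K4me3 with H3K4me1 and no H3K27ac, found at *Onecut1* and *Onecut2*, occurred at 32.6% of all genes. Among the 11554 genes with promoter H3K4me3, 27.5% had H3K27ac, 86.7% had H3K4me1 and 85.0% had Otx2, and 61.8% had H3K4me1 without H3K27ac, so the state of these 2 promoters was the more frequent one.

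The H3K4me3 peak of *Onecut1* (chr9:74861890-74864543) began next to the gene start, had its summit in a UTR of the gene at 0.4 kb and reached 13.3-fold over IgG with a −log10 q of 46.0. The peak of *Onecut2* (chr18:64339416-64344375) reached 13.0-fold with a −log10 q of 68.5, and its summit at 0.9 kb lay in coding sequence. Both folds were below the median of 17.6-fold over H3K4me3 promoters, and 64.0% and 65.3% of those promoters had at least as high a fold. Both peaks were wide. The *Onecut1* peak spanned 2654 bp and the *Onecut2* peak 4960 bp, against a median of 1577 bp, and 12.3% and 1.28% of promoter peaks were at least as wide. These 2 promoters thus combined a moderate H3K4me3 fold with an extended H3K4me3 region, most of all at *Onecut2*.

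H3K4me1 flanked the *Onecut1* start. A peak of 4.36-fold had its summit at −0.6 kb, and one of 7.55-fold lay at 1.7 kb inside the first part of the gene, next to a further peak of 8.59-fold at 5.3 kb. The summit of that further peak lay 782 bp from the start of the second annotated transcript of *Onecut1*. At *Onecut2* the flanking H3K4me1 peaks reached 7.13-fold at −1.7 kb and 9.07-fold at 3.9 kb, and the latter was the widest H3K4me1 peak around the 3 genes, with 5638 bp. At *Onecut3* the single promoter peak reached 2.85-fold at 0.4 kb, with a −log10 q of 4.19. The order of promoter H3K4me1 was thus *Onecut2*, *Onecut1* and *Onecut3*, but with no replicate values it is not known whether the first 2 differed beyond their spread.

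**Figure D1:**
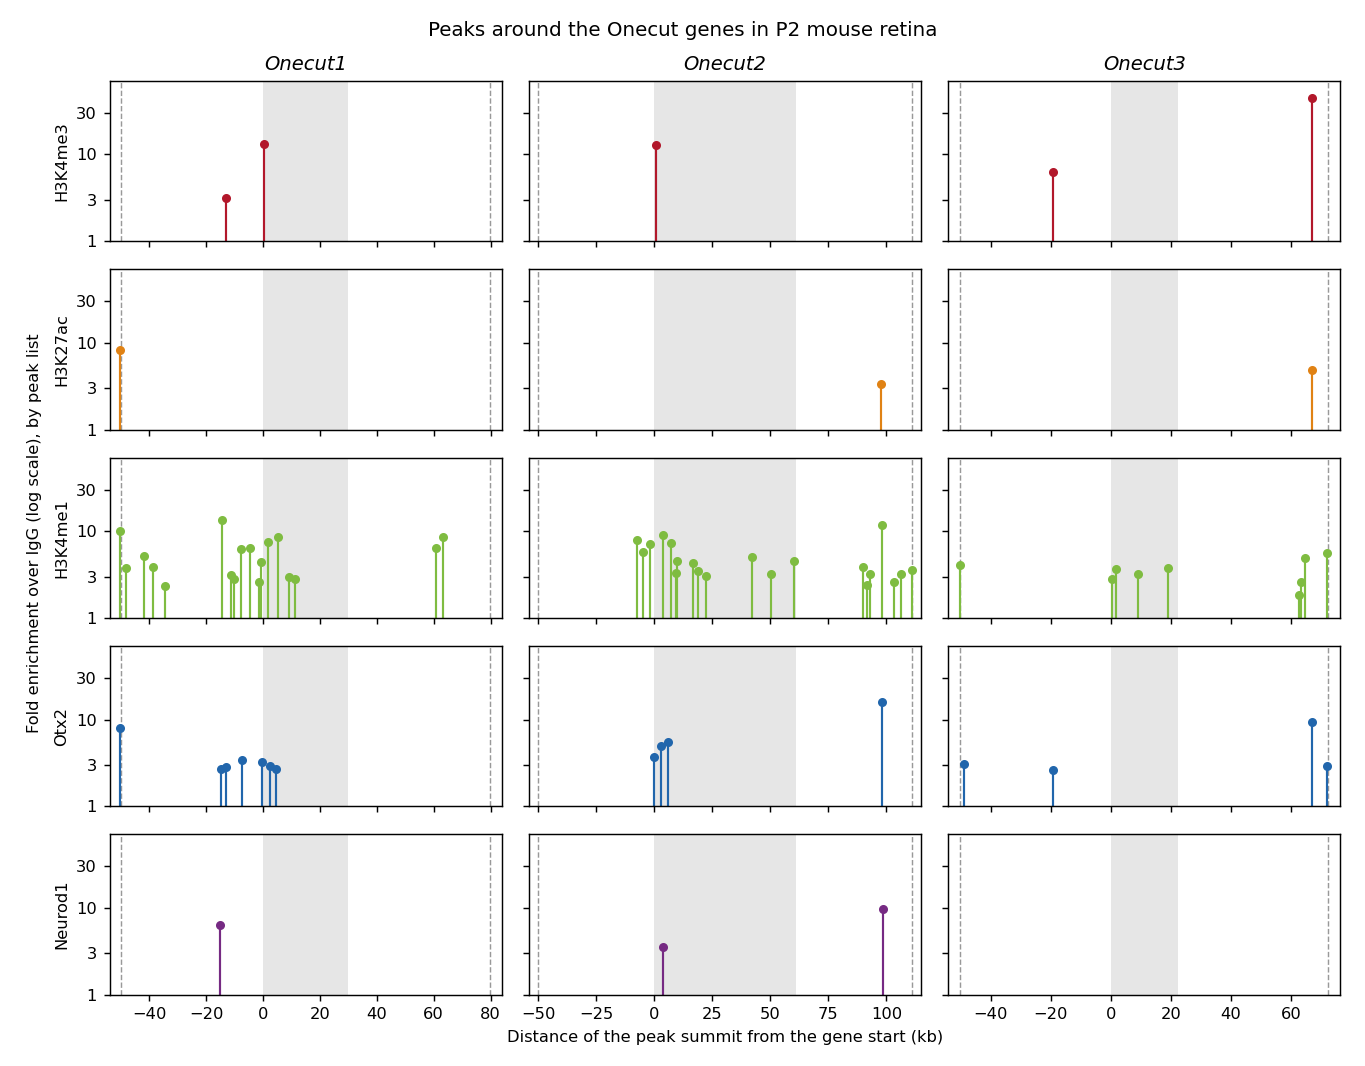
Peaks around each *Onecut* gene (columns) in each list (rows). The x axis gives the distance of the summit from the gene start in kb, the y axis the fold enrichment over IgG on a log scale, the grey area the gene body and the dashed lines the ends of the 50 kb flanks. The single H3K27ac peak of each window lies outside the gene and overlaps the highest Otx2 peak of that window. These Otx2 peaks reach 8.04-fold at *Onecut1*, 15.9-fold at *Onecut2* and 9.26-fold at *Onecut3*.

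**Figure D2:**
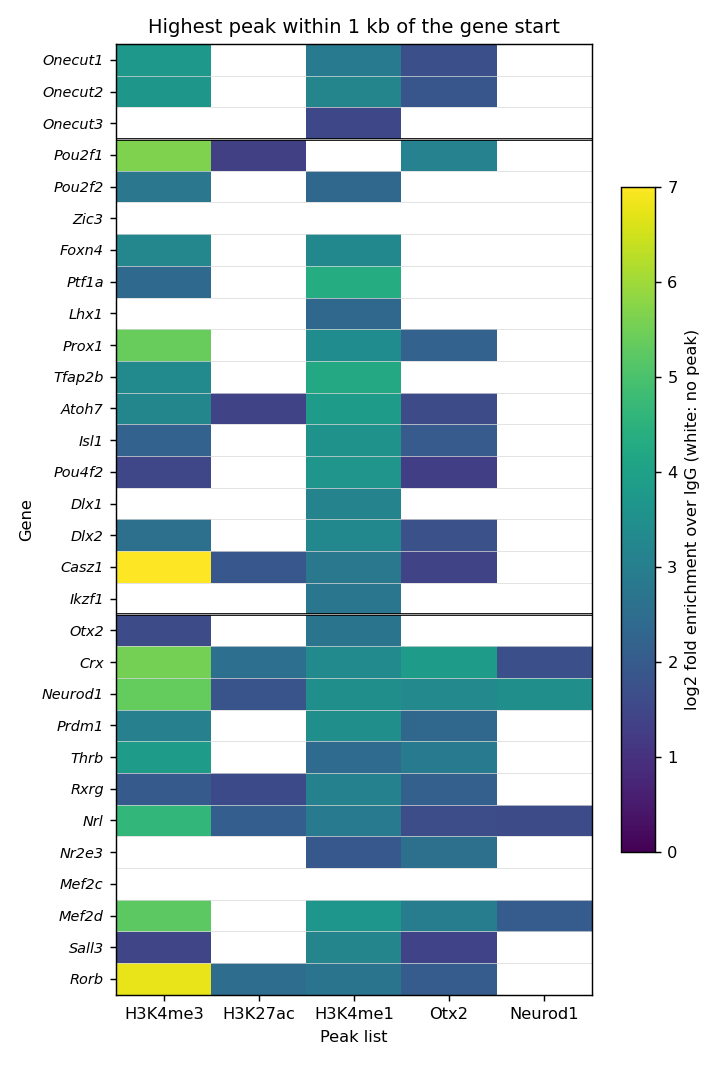
Log2 fold enrichment over IgG of the highest peak within 1 kb of the gene start (colour, white where no peak was called) for the *Onecut* genes, 15 early cone, horizontal and ganglion cell regulators and 12 photoreceptor regulators (rows, separated by black lines) in the 5 lists (columns). The H3K27ac and Neurod1 cells are white for all 3 *Onecut* genes, and the H3K4me3 and Otx2 cells are white for *Onecut3*.

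H3K27ac peaks were few around all 3 genes, as around many genes. Each window held 1, against a median of 2 over all genes, and 46.7% of genes had at most 1. None of the 3 gene bodies was touched by an H3K27ac peak. For the 2 genes with promoter H3K4me3 the background is 47.6% of such genes. It was not adjusted for gene length, and no share was computed that applies to *Onecut3*. The nearest H3K27ac peak was 49.1 kb from the start of *Onecut1*, 97.8 kb from that of *Onecut2* and 66.5 kb from that of *Onecut3*. The median distance was 31.9 kb over all protein-coding genes and 16.4 kb over those with promoter H3K4me3. Over all genes, 39.1% lay at least as far from an H3K27ac peak as *Onecut1*, 24.2% as *Onecut2* and 31.9% as *Onecut3*. Among genes with promoter H3K4me3, which *Onecut3* lacks, the shares were 21.4% for *Onecut1* and 8.52% for *Onecut2*. Both genes thus lay farther from H3K27ac than the median gene with promoter H3K4me3.

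The acetylated region of *Onecut1* lay upstream in intergenic DNA, at the edge of the window. Its H3K27ac peak (chr9:74810116-74812801) was 2686 bp wide and reached 8.24-fold with a −log10 q of 33.5, and only 1.46% of all H3K27ac peaks had at least this fold. An Otx2 peak of 8.04-fold (chr9:74810504-74812017), with 5.51% of Otx2 peaks at least as high, and an H3K4me1 peak of 10.1-fold shared the region, with summits between −50.5 and −50.4 kb. These summits lay just beyond the 50 kb flank, and the peaks were members because they reached into it. A Neurod1 peak of 4.48-fold (chr9:74811172-74811578) overlapped the same region but ended 50.3 kb from the gene, so that it was not a member. The nearest protein-coding gene start to the region was that of *Onecut1*.

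The acetylated region of *Onecut2* lay downstream, 36.9 kb past the end of the gene. It held the highest Otx2 peak around the 3 genes (chr18:64437857-64438738), which reached 15.9-fold with a −log10 q of 102, and 0.423% of all Otx2 peaks had at least this fold. A Neurod1 peak of 9.72-fold (chr18:64438145-64438635) had its summit at 98.4 kb, next to the Otx2 summit at 98.3 kb, and 4.66% of Neurod1 peaks were at least as high. An H3K4me1 peak of 11.7-fold and 4055 bp enclosed both. The H3K27ac peak there was narrow, with 484 bp, and reached 3.32-fold with a −log10 q of 4.63, close to the list median of 3.36-fold. It was lost when peaks under a −log10 q of 5 were left out, and it covered less than 50% of the Neurod1 peak, whose summit lay outside it. The nearest protein-coding start to this region was that of *Fech*, the gene for ferrochelatase, and not that of *Onecut2*.

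The acetylated peak in the window of *Onecut3* lay at the promoter of a neighbour, *Rexo1*, a putative RNA exonuclease gene whose start is 66.7 kb from that of *Onecut3*. It reached 4.84-fold, together with an H3K4me3 peak of 45.2-fold and an Otx2 peak of 9.26-fold. These were the highest peaks of their lists in the window. The other protein-coding gene starting in the window, *Atp8b3*, a flippase gene, had no peak of any list within 1 kb of its start at 44.3 kb.

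The 3 acetylated peaks thus had different surroundings, but each overlapped an Otx2 peak, which 16.6% of all H3K27ac peaks did. Those of *Onecut1* and *Onecut2* also overlapped a Neurod1 peak, the first one lying outside the window, and 3.52% of all H3K27ac peaks overlapped both factors. These shares were not matched for width, and the list median was 432 bp against 2686 bp at *Onecut1*. The peak in the *Onecut3* window belonged to the *Rexo1* promoter, and 85.0% of genes with promoter H3K4me3 had Otx2 at the promoter. The region of *Onecut1* was high for H3K27ac within its list and that of *Onecut2* was high for Otx2 within its list.

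**Figure D3:**
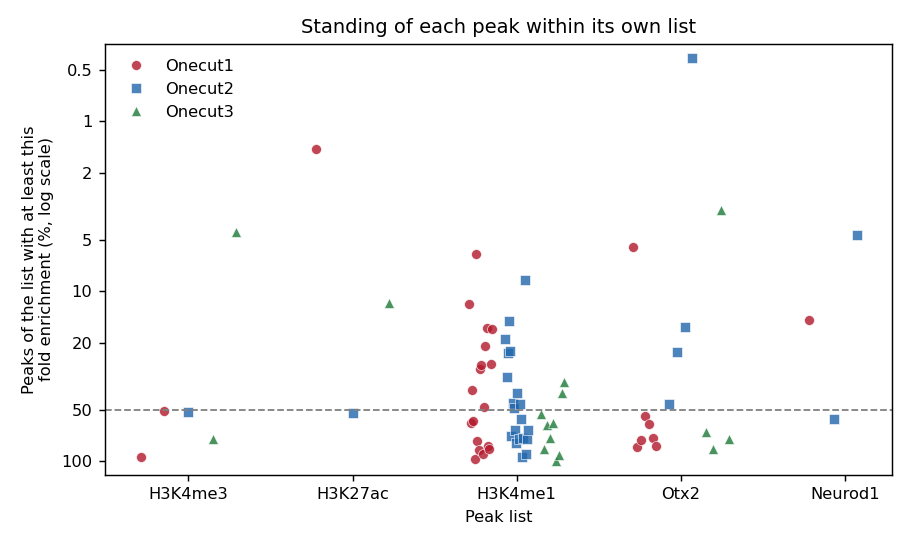
Share of each list's peaks that had at least the fold enrichment of a given peak (y axis, percent on a log scale, highest folds at the top) for every peak around *Onecut1* (circles), *Onecut2* (squares) and *Onecut3* (triangles), by list (x axis). The dashed line marks the median of the list. The topmost points are the Otx2 peak downstream of *Onecut2*, at 0.423%, and the H3K27ac peak upstream of *Onecut1*, at 1.46%.

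A second region upstream of *Onecut1* carried both factors without H3K27ac. The highest H3K4me1 peak of the 3 windows (chr9:74846350-74850335) reached 13.4-fold at −14.4 kb, and it enclosed the only Neurod1 peak of the window (chr9:74846857-74847290), with 6.38-fold and a −log10 q of 27.6. Otx2 was lower there than in the acetylated region, with peaks of 2.67-fold at −14.7 kb and 2.87-fold at −13.1 kb. A narrow H3K4me3 peak of 3.18-fold and 515 bp lay in the same region, at exons of 2 noncoding genes, *Gm16551* and *Gm20649*, that start at −13.9 and −13.5 kb on the same strand as *Onecut1*, the latter running on through most of *Onecut1*. In H3K4me1 and Neurod1 this region exceeded the acetylated one, and in Otx2 it was below it.

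The remaining 4 Otx2 peaks of *Onecut1* lay close to the gene start and were all low. They reached 3.41-fold at −7.4 kb, over an exon of the noncoding gene *Gm28182*, 3.25-fold at −0.4 kb in the promoter, 2.93-fold at 2.5 kb in an intron and 2.71-fold at 4.6 kb in an exon. The summit at 4.6 kb lay 34 bp from the start of the second annotated transcript of *Onecut1*. Between 54.2% and 82.8% of all Otx2 peaks were at least as high as the 6 Otx2 peaks of *Onecut1* outside the acetylated region. All 7 Otx2 peaks of this gene overlapped H3K4me1.

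The 18 H3K4me1 peaks of *Onecut1* covered 24.5 kb, or 18.9% of its window, and ranged from 2.31-fold to 13.4-fold with a median of 4.74-fold, beside a list median of 4.25-fold. By summit, 12 lay upstream, 4 in the 5′ part of the gene body, the last at 11.1 kb, and 2 downstream, at 60.9 and 63.4 kb. No peak of any list had its summit between these, so the 3′ part of the gene and the DNA after it were empty. The nearest protein-coding start to the 2 downstream peaks was that of *Fam214a*.

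Around *Onecut2* the 20 H3K4me1 peaks covered 29.1 kb, or 18.1% of the window, from 2.43-fold to 11.7-fold with a median of 4.13-fold. They were spread over the gene, with 10 summits in its body, 3 upstream, none farther than −7.4 kb, and 7 downstream. The peaks overlapping one another at the promoter formed 1 region from −3.0 to 6.3 kb with H3K4me3, 2 H3K4me1 peaks, 3 Otx2 peaks and a Neurod1 peak. In this region the Otx2 folds were 3.69 at the gene start, 4.90 at 3.0 kb and 5.58 at 5.9 kb, and the Neurod1 peak of 3.57-fold lay at 3.7 kb in the intron. The Otx2 folds were thus higher inside the gene than at its start. With no replicate values it is not known whether they differed beyond their spread.

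Around *Onecut3* the 9 H3K4me1 peaks covered 5.82 kb, or 4.75% of the window, and 5.54-fold was the highest. The gene body held 4 of them, with 2.85-fold, 3.66-fold, 3.23-fold and 3.77-fold, all below the list median, and no other list had a peak in the body. Outside the *Rexo1* promoter, H3K4me3 was called at −19.2 kb with 6.21-fold, near the snRNA gene *Gm25044* and together with an Otx2 peak of 2.63-fold. The other Otx2 peaks reached 3.05-fold at −48.7 kb and 2.90-fold at 71.8 kb. No Neurod1 peak was a member, and the nearest one, of 3.38-fold, ended 50.1 kb from the gene.

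Around the 3 genes, most regions, but not most peaks, belonged to H3K4me1 by itself. H3K4me1 was also the largest list, with 135798 of the 246656 peaks, and no share of joined regions was computed for other genes. When overlapping peaks of the windows were joined, the 73 peaks formed 18 regions around *Onecut1*, 19 around *Onecut2* and 11 around *Onecut3*, of which 12, 17 and 7 held H3K4me1 alone and 3, 2 and 1 combined 3 or more lists. One of the 7 around *Onecut3* overlapped a Neurod1 peak outside the window. Peak by peak, 36 of the 73 overlapped no peak of another list, beside 46.5% of all 246656 peaks. For H3K4me1 this was 35 of 47 peaks, beside 64.2% of the whole H3K4me1 list, with 12 of 18 around *Onecut1*, 17 of 20 around *Onecut2* and 6 of 9 around *Onecut3*.

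The 15 Otx2 peaks overlapped H3K4me1 in 12 cases, beside 78.9% of the whole Otx2 list, H3K4me3 in 6, beside 43.3%, and H3K27ac in 3, beside 36.2%. The 12 comprised all peaks of *Onecut1* and *Onecut2* and 1 of 4 peaks of *Onecut3*. Neurod1 overlapped 4 of the 15 Otx2 peaks, beside 13.1% of the list, and 3 of these 4 overlaps were with Neurod1 peaks inside the windows. All 3 Neurod1 peaks overlapped both H3K4me1, beside 85.2% of the Neurod1 list, and Otx2, beside 82.1%. H3K27ac overlapped 1 of them, downstream of *Onecut2*, beside 52.3% of the list, and H3K4me3 overlapped 1, in the *Onecut2* promoter region, beside 25.6%.

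The Otx2 core was found within 150 bp of 2 of the 15 Otx2 summits, beside 18.2% of all Otx2 summits. The Neurod1-type E-box was found at 4, beside 22.2%, and the palindromic E-box at 5, beside 20.6%. The Onecut core was found at 2, beside 6.25%, and its palindromic form at 1, beside 0.896%. The Otx2 summit at 5.9 kb in *Onecut2* held the palindromic Onecut core at 37 bp, the Otx2 core at 53 bp and the Onecut core at 116 bp from the summit, and it was the only member with the palindromic form. The highest Otx2 summit, downstream of *Onecut2*, held the Neurod1-type E-box at 117 bp and none of the other strings. Of the 3 Neurod1 summits, 1 held the Neurod1-type E-box, beside 52.1% of the Neurod1 list, and 2 held the palindromic E-box, beside 39.8%. The Otx2 core and the 2 forms of the Onecut core, held by 14.2%, 5.97% and 0.864% of the list, were at none of the 3. Both strands were searched, and matches to different strings were allowed to share bases.

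Compared with all protein-coding genes, *Onecut1* and *Onecut2* had H3K4me1 counts in the upper quartile. *Onecut1* had 18 and *Onecut2* had 20, against a median of 8, and 13.7% and 10.4% of genes had at least as many. Because longer genes have longer windows, the counts were also set per 100 kb, by which 8.99% and 13.1% of genes had at least as many. Among the 11554 genes with promoter H3K4me3, to which both belong, the shares by count were 20.01% and 15.21%. *Onecut3*, with 9 peaks, was near the median. *Onecut1* also had 7 Otx2 peaks, against a median of 3, with 13.2% of all genes and 19.1% of those with promoter H3K4me3 at least as high. *Onecut2* had 2 Neurod1 peaks, and 11.4% of all genes and 15.5% of those with promoter H3K4me3 had at least as many. *Onecut2* and *Onecut3* had 4 Otx2 peaks each, with 38.0% of all genes at least as high. For *Onecut2* the share among genes with promoter H3K4me3, which *Onecut3* lacks, was 53.8%. When peaks under a −log10 q of 5 were left out, the H3K4me1 counts of *Onecut1* and *Onecut2* were 11 and 13 and 2 Otx2 peaks were counted at *Onecut1*. Merging H3K4me1 peaks within 500 bp gave 12 at *Onecut1* and 15 at *Onecut2*. The share of genes with at least as many was not recomputed for either setting. H3K4me3 counts of 2, 1 and 2 were at or below the median of 2.

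**Figure D4:**
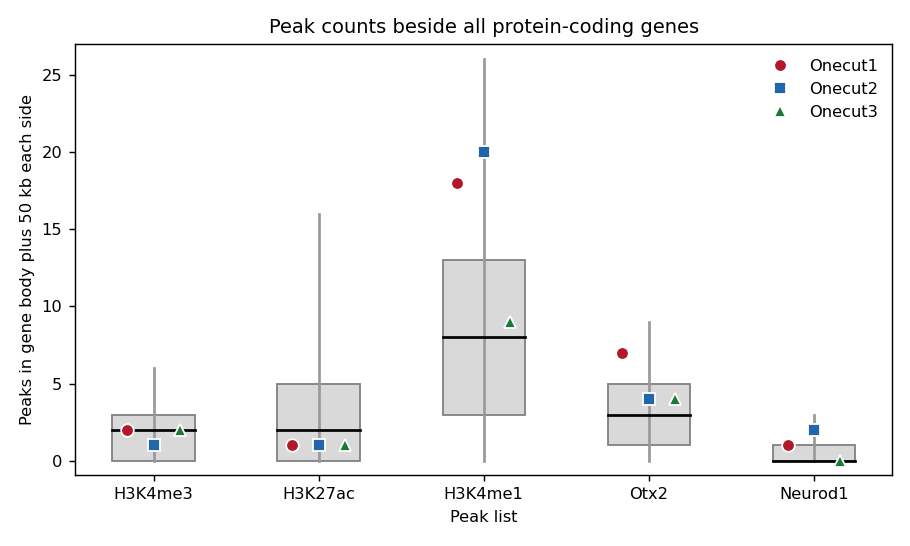
Number of peaks of each list (x axis) in the gene body plus 50 kb on each side (y axis) for *Onecut1*, *Onecut2* and *Onecut3* (coloured symbols). Grey boxes span the quartiles over 21938 protein-coding genes with the median as a black line, and grey lines run from the 5th to the 95th percentile. The H3K4me1 counts of *Onecut1* and *Onecut2*, 18 and 20, lie above the upper quartile of 13.

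The *Onecut* genes were set beside a list of 15 other genes compiled as regulators of early cones, horizontal cells and ganglion cells, such as *Pou2f1*, *Atoh7* and *Prox1*, and 12 photoreceptor regulators, such as *Crx*, *Nrl* and *Thrb*. The early list also holds *Casz1*, which is known for favouring rods over cones and had 45 H3K27ac peaks in its window. Its genes *Foxn4*, *Ptf1a*, *Lhx1*, *Prox1* and *Tfap2b* were also among the horizontal cell markers above, so these 2 sets are not independent. Of the early list, 11 of 15 had promoter H3K4me3, 3 had H3K27ac, 13 had H3K4me1, 7 had Otx2 and 0 had Neurod1. Of the photoreceptor regulators, 10 of 12 had H3K4me3, 5 had H3K27ac, 11 had H3K4me1, 10 had Otx2 and 4 had Neurod1. Over all protein-coding genes, the shares with these promoter peaks were 52.7% for H3K4me3, 15.8% for H3K27ac, 57.6% for H3K4me1, 47.0% for Otx2 and 4.23% for Neurod1. The promoters of *Onecut1* and *Onecut2* had H3K4me3 and H3K4me1 but not H3K27ac. This state was shared by 8 of the 15 and by 5 of the 12, beside 32.6% of all protein-coding genes. Among genes with promoter H3K4me3 it was shared by 8 of 11 and by 5 of 10, beside 61.8% of all such genes. Around the genes, the median number of H3K27ac peaks was 1 for the early and 8.5 for the photoreceptor regulators, of Otx2 peaks 4 and 8, and of H3K4me1 peaks 10 and 17. Over all protein-coding genes these medians were 2, 3 and 8. The H3K27ac counts of both lists overlapped. They ran from 0, as at *Ptf1a*, to 45 at *Casz1* in the early list, with 18 at *Foxn4* next highest. Among the photoreceptor regulators they ran from 0 at *Sall3* to 69 at *Rorb*. At most 1 H3K27ac peak was present around all 3 *Onecut* genes, 8 of the 15 early regulators and 2 of the 12 photoreceptor regulators. The share over all protein-coding genes was 46.7%, and these counts were not adjusted for window length. Without *Casz1*, the early list had H3K4me3 at 10 of 14 promoters and H3K27ac at 2, and its median number of H3K27ac peaks was again 1. The H3K27ac count of each *Onecut* gene equalled that median, whereas in H3K4me1 *Onecut1* and *Onecut2* were above the medians of both lists.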

How the data were processed

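The 5 mouse peak lists of the series were analysed, and the 13LGS lists were not analysed here. The authors trimmed reads with Trim Galore 0.6.4 and cutadapt 3.5, aligned them to GRCm38 with Bowtie2, removed duplicates and blacklisted regions, and used macs2, with IgG as control and a q-value threshold of 0.05, on the pooled libraries of a target. Fold enrichment is a ratio of pooled signal to IgG as deposited, and significance is the deposited −log10 of the q-value. Neither was rescaled. Read depth is unknown.

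Peaks sharing at least 1 bp with a gene body of GENCODE M21 or 50 kb on each side were counted in Python 3.11.15 with numpy 2.4.6 and pandas 2.3.3. Promoters were 1 kb on each side of the gene start. The counting code gave the counts of bedtools 2.31.1 on simulated intervals. Sequences were read from GRCm38.p6 with pysam 0.24.0, and plots were drawn with matplotlib 3.10.9. RefSeq promoters matched 1 of the 3 genes.

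The genes named are the *Onecut* genes, protein-coding genes starting in a window and 2 lists of regulators, and the peaks named are every factor peak, every promoter peak and the highest peak per list and gene. Other peaks and nearby genes were named after their values were seen. Members and lists were chosen with earlier results of these data known. One retinal marker of the tissue check is not reported here. Alternatives were flanks of 25 and 100 kb, a −log10 q of at least 5, summits inside the window, merging within 500 bp, assignment to the nearest protein-coding start, other promoter definitions and stricter overlaps.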

Additional observations from a re-analysis of the deposited data

How the results depend on the processing

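Counts were most sensitive to the flank. With 100 kb on each side, *Onecut1* had 4 H3K4me3, 3 H3K27ac, 28 H3K4me1 and 2 Neurod1 peaks, *Onecut2* 3 H3K4me3 and 3 H3K27ac peaks, and *Onecut3* 9 H3K4me3, 11 H3K27ac, 30 H3K4me1, 14 Otx2 and 3 Neurod1 peaks. With 25 kb, H3K27ac fell to 0 peaks at all 3 genes, H3K4me1 to 11, 13 and 4, Neurod1 at *Onecut2* to 1, and H3K4me3 and Otx2 at *Onecut3* to 1 each. With a −log10 q of at least 5, *Onecut1* had 1 H3K4me3, 11 H3K4me1 and 2 Otx2 peaks, *Onecut2* 0 H3K27ac and 13 H3K4me1 peaks, and *Onecut3* 5 H3K4me1 and 2 Otx2 peaks, with 0 H3K4me1 peaks at its promoter. With the summit inside the window, *Onecut1* had 0 H3K27ac peaks. By nearest protein-coding start, *Onecut2* had 0 H3K27ac, 13 H3K4me1 and 1 Neurod1 peaks, and *Onecut3* had 1 H3K4me3, 0 H3K27ac, 4 H3K4me1 and 1 Otx2 peaks. Starts of any annotated transcript gave 2 Otx2 peaks at the *Onecut1* promoter, and a promoter of 500 bp on each side gave 1 H3K4me1 peak at *Onecut2*. With the factor summit inside the H3K27ac peak, or 50% of the factor peak covered, 0 Neurod1 peaks shared H3K27ac. Of 90 recomputed counts 55 stayed within 1.5 times, as did 42 of 45 promoter and 10 of 12 shared counts. Shares of genes with at least as many peaks, recomputed per 100 kb or among genes with promoter H3K4me3, moved beyond their 95% counting interval in 28 of 30 cases. Leaving out *Casz1*, chosen after seeing the data, changed the early list's promoter H3K27ac from 3 to 2 genes. No library could be left out and no paired analysis was possible because each list pools all libraries of its target, and depth could not be examined.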
